A study of Mus musculus with 8 samples.

Results

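The interferon regulatory factors (IRFs) are the transcription factors that turn the sensing of nucleic acids and of interferons into gene expression. The genes examined were Irf1, Irf2, Irf3, Irf4, Irf5, Irf7, Irf8 and Irf9, chosen by name, and they made up 8 of the 55487 genes in the count table. They were measured by bulk RNA-seq in 8 Lewis lung carcinoma (LLC) tumors, 4 wild-type and 4 labelled Ago2 knock-out, here called ΔAgo2. LLC is a transplantable mouse lung cancer line. All tumors grew subcutaneously in C57BL/6J mice, the strain the line came from, and were taken at day 12 with no treatment. Per the study's methods the hosts were females of 6 to 8 weeks when obtained. To disrupt Ago2, cells received a CRISPR guide by lentivirus, were drug-selected and were taken on as 1 clone, so that the knock-out and the features of that clone cannot be told apart. The host's stromal and immune cells carry normal Ago2 in both groups, and a tumor library holds RNA of both cancer and host cells.

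Each IRF carries a tryptophan-rich DNA-binding domain that reads the interferon-stimulated response element (ISRE). IRF3 and IRF7 are phosphorylated by the kinases TBK1 and IKKε and switch on the interferon genes. IRF9 is the DNA-binding subunit of the complex ISGF3, which also holds STAT2 and drives interferon-stimulated genes. IRF1 is induced by interferon gamma through a gamma-activated site (GAS), and IRF2 competes with it at shared sites. IRF4, IRF5 and IRF8 act mainly in immune cells, IRF5 downstream of Toll-like receptors and IRF4 and IRF8 together with PU.1 or with BATF and JUN proteins. In bulk tumors fewer cells of a type and less RNA per cell cannot be told apart.

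The promoters show which of the 8 genes carry the letters of these elements close to their own start. RefSeq promoter windows (GRCm38.p6) were found for all 8 genes, 11 windows in all, and were searched on both strands. The ISRE core TTTCNNTTTC was in 1 of these 11 windows and in 3.44% of 32851 windows of all genes. The GAS core TTCNNNGAA was in 3 of the 11 and in 8.3% of all. The stretches that hold the matches are printed 5′ to 3′ on the plus strand, the strand of these 3 genes, with the matched letters in capitals.
Irf1, chr11:53769914-53769943, with a GAS match 90 bases before the start: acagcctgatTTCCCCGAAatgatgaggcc
Irf2, chr8:46739502-46739531, with an ISRE match 241 bases and a GAS match 224 bases before the start: gtGAAAATGAAAttgacttTTCCGAGAAat
Irf8, chr8:120736186-120736215, with GAS matches 171 and 153 bases before the start: tTTCTCGGAAagagagcgcTTCAGAGAAgg
Irf1 and Irf8, and Irf2, which also holds the ISRE match, are the genes with a GAS match, and none of the windows of Irf3, Irf4, Irf5, Irf7 and Irf9 held either core. A match is a run of letters and was not tested for binding.

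Depth differed widely, from 7903288 counts in wild-type tumor 4 to 268564145 in ΔAgo2 tumor 4, and the libraries also differed in how counts rose or fell with the GC content of genes. All libraries carried batch label 1. Ago2 itself was at 154 ± 28.9 CPM (counts scaled to a library total of 1e+06; SD, n = 4) in wild-type and 240 ± 99.2 in ΔAgo2 tumors. Since a CRISPR guide can leave the transcript in place and host cells express the gene, this does not check the label. Of the lung epithelial markers, Nkx2-1 was at 0 in every library and the summed level of the 5 was 9.43 to 17.4 CPM, while general epithelial markers (Epcam, Cdh1 and 3 keratins) summed to 500.0 to 1259 CPM. Skeletal muscle markers (6 genes) summed to 232 to 3166 CPM in wild-type and 45.4 to 191 in ΔAgo2 tumors, highest in wild-type tumor 3. Keratinocyte markers (6 genes) summed to 10.8 CPM in wild-type tumor 3, 160 in wild-type tumor 4 and 445 to 863 in the other 6 libraries. Macrophage and monocyte markers (11 genes, none past the threshold) summed to 1719 to 1939 CPM in wild-type tumors, 2951 in ΔAgo2 tumor 1 and 1225 to 1493 in the other ΔAgo2 tumors. The sum does not stand for each marker, since 5 of the 11 had a log2 fold change of ΔAgo2 over wild-type above 0. These values ran from -0.51 for Cd68 (edgeR adjusted p = 0.136) to 1.22 for Ccr2 (edgeR adjusted p = 0.115).

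Levels of the 8 genes were first compared with each other in TPM, which scales each library to the same total after division by gene length. Irf1 had the highest mean, 78.4 ± 14.8 TPM (SD, n = 8), followed by Irf7 at 76.1 TPM, with a range of 32.2 to 113. Irf5 was at 46.2 ± 7.51 and Irf3, the most widely expressed interferon inducer, at 42.1 ± 9.16 TPM. Irf9 at 21.8 ± 9.59, Irf8 at 17.4 ± 2.38 and Irf2 at 16.6 ± 5.57 lay close together, and Irf4 was at 0.78 ± 0.26 TPM.

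The neighbours compared were set by the mean log2(TPM + 1) over these same 8 libraries. The tests thus do not check the order on separate data. They passed the threshold at 2 steps. Irf3 exceeded Irf9 by 1.04 on the log2(TPM + 1) scale, in 8 of 8 libraries, and Irf2 exceeded Irf4 by 3.25, also in 8 of 8 (exact sign-flip permutation test, adjusted p = 0.0273 for each over 7 neighbour pairs). The smallest raw p this test can give is 0.0078. The test pools both genotypes, and the step from Irf3 to Irf9 was not of one size in them. Mean TPM of Irf3 and Irf9 was 46.8 and 14.97 in wild-type tumors, but 37.3 and 28.7 in ΔAgo2 tumors. In ΔAgo2 tumor 2 the values were 39.1 and 35.75 TPM. The 1.04 is thus an average over both groups. TPM were not corrected for GC content, which was 56.7% for Irf3 and 50.4% for Irf9. Irf7 was above Irf5 in 7 of 8 libraries by 0.60 (exact sign-flip, adjusted p = 0.0547). Without wild-type tumor 4 the difference was 0.71 and passed (adjusted p = 0.0365, exact). Without wild-type tumor 3 it was 0.69 (adjusted p = 0.0729, exact), and on leaving out any other library the adjusted p was 0.109 (exact). The other 4 neighbour pairs, Irf1 and Irf7, Irf5 and Irf3, Irf9 and Irf8, and Irf8 and Irf2, did not differ beyond their spread (exact, adjusted p = 0.539). By the ratio of the highest to the lowest library, Irf9 varied most, from 5.90 to 35.8 TPM (6.06-fold), and Irf8 least, from 13.5 to 20.2 TPM (1.5-fold). By the root-mean-square deviation of log2 CPM, Irf7 (0.586) and Irf9 (0.576) varied most and Irf2 (0.199) least.

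**Figure D1:**
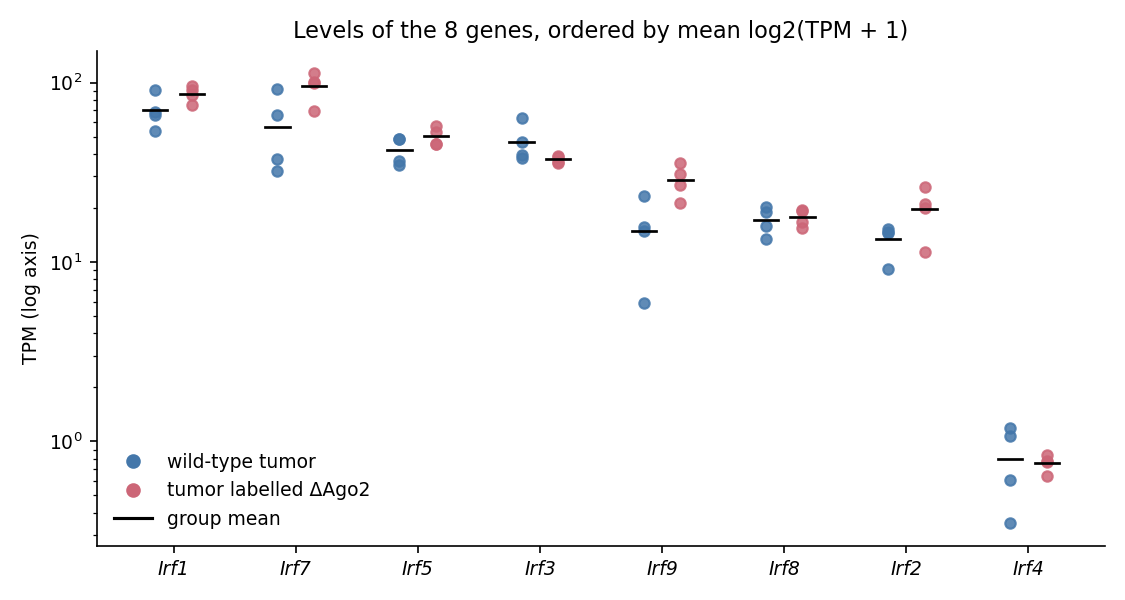
TPM of the 8 genes (log axis) in each of 4 wild-type (blue) and 4 ΔAgo2 (red) tumors, with bars at the group means. Irf1 and Irf7 stand at the top, Irf4 is far below the rest, and the spread of Irf9 within the wild-type group reaches down to 5.90 TPM.

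The 8 genes together took 211 to 375 TPM in a library. Irf3 made up 12.5% to 22.1% of that sum in wild-type and 10.4% to 12.0% in ΔAgo2 tumors, with no overlap. This share also depends on the other genes in the sum and was not compared with other genes. The TPM of Irf3 itself overlapped, at 38.11 to 63.15 in wild-type and 35.73 to 39.1 in ΔAgo2 tumors. The share was not corrected for GC content, and the GC-corrected CPM of Irf3, given with that gene, overlapped. Irf9 made up 2.79% to 7.67% in wild-type and 6.12% to 9.54% in ΔAgo2 tumors, which overlapped. Irf5 hardly moved as a share, at 14.1% to 17.3% over all 8 libraries.

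The genotypes were then compared gene by gene on counts, in CPM of TMM-scaled libraries, with log2 fold changes of ΔAgo2 over wild-type from edgeR's quasi-likelihood test. None of the 8 genes passed an adjusted p of 0.05 over the 16061 genes tested, of which 3.49% did (1.36% higher and 2.12% lower in ΔAgo2 tumors). At an unadjusted p under 0.05 the count was 1 of 8 (Irf9), against 26.7% of all genes, and no gene had groups that did not overlap, against 16.4% of all genes (8.05% with ΔAgo2 higher). With the DESeq2 Wald test 0 of 8 passed, and with limma voom 1 of 8 (Irf4), where 13.1% and 27.9% of all genes did. With the trend of counts on GC content removed from each library, 0 of 8 passed, against 3.7% of all genes. The median log2 fold change of the 8 was 0.10, with 5 above 0, beside a median of 0.04 over all genes tested.

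**Figure D2:**
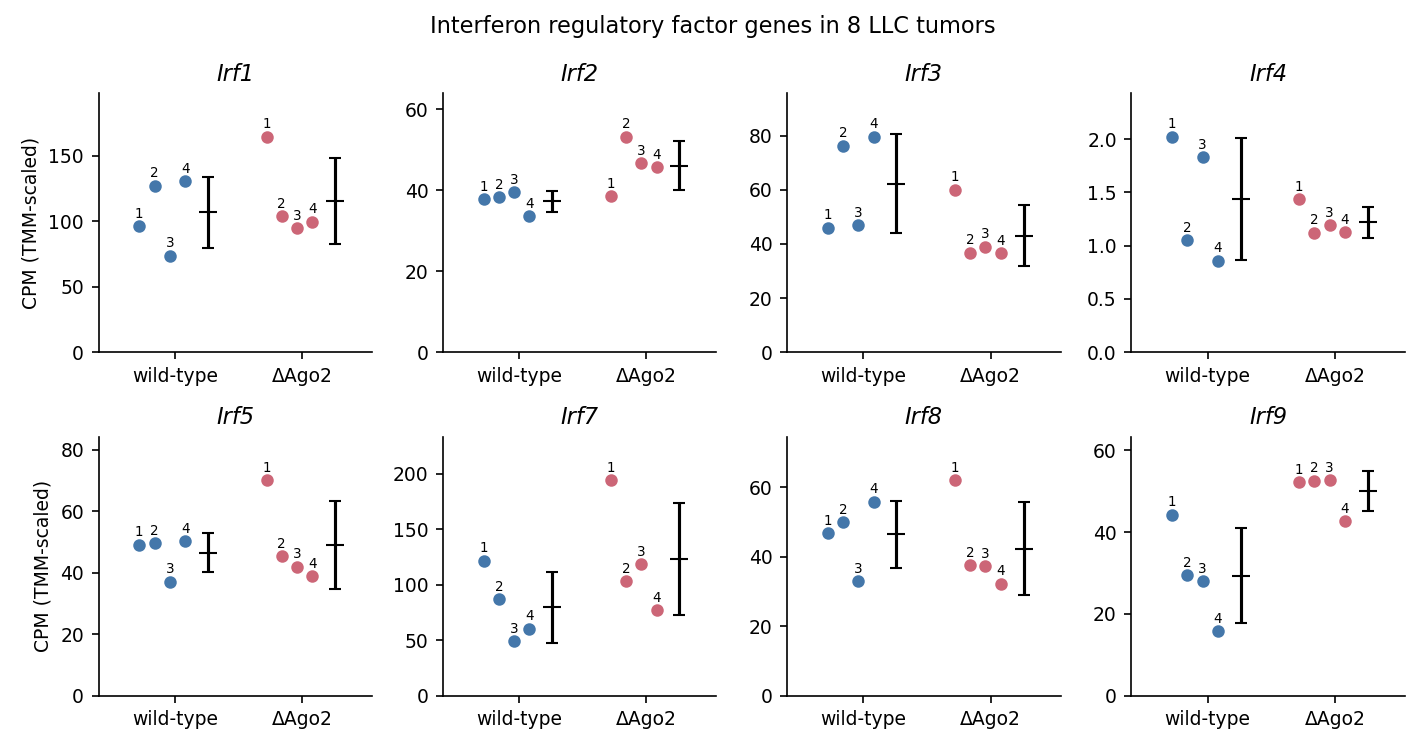
CPM (TMM-scaled) of each gene in each tumor, numbered by replicate, with the mean and SD of each group of 4 in black. The groups overlap for all 8 genes, ΔAgo2 tumor 1 is the highest library for Irf1, Irf5, Irf7 and Irf8, and 3 ΔAgo2 tumors lie above all wild-type tumors for Irf9 and below them for Irf3.

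Among the interferon inducers, Irf3 and Irf7 had differences of opposite sign, neither past the threshold and each with a 95% interval that included 0. Irf3 (ENSMUSG00000003184.15, chr7:44997648-45002848, plus strand) measured, in the order of tumors 1 to 4, 46.0, 76.3, 47.0 and 79.7 CPM in the wild-type group and 60.1, 36.7, 39.0 and 36.6 CPM in the ΔAgo2 group. Of the ΔAgo2 tumors, 3 lay below every wild-type tumor, and ΔAgo2 tumor 1 lay within their range. The log2 fold change was -0.53 (SE 0.26, 95% interval -1.10 to 0.05, edgeR adjusted p = 0.218).

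Irf3 is rich in GC, at 56.7% of its longest transcript. Its highest and lowest levels were in libraries at the ends of the GC trend. The trend, the change in log2 counts per 10 points of GC, was 0.67 and 0.84 in wild-type tumors 2 and 4, where Irf3 was highest, and -0.62, -0.23 and -0.45 in ΔAgo2 tumors 2, 3 and 4, where it was lowest. After the trend was removed, Irf3 was at 47.5 to 54.0 CPM in wild-type and 44.2 to 61.2 CPM in ΔAgo2 tumors, with a log2 fold change of -0.02 (SE 0.15, edgeR adjusted p = 0.945). Across all genes the log2 fold change and GC content had a Spearman correlation of -0.56, in the same 8 libraries. Without correction, ΔAgo2 tumor 1 held more Irf3 than wild-type tumor 1, at 60.1 against 46.0 CPM, although their trends were alike (-0.01 and -0.04). The upper end of the trend held only wild-type libraries and the lower end only ΔAgo2 libraries. Genotype and GC trend thus cannot be fully told apart. Whether the correction also removed a genotype difference in Irf3 was not tested.

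**Figure D3:**
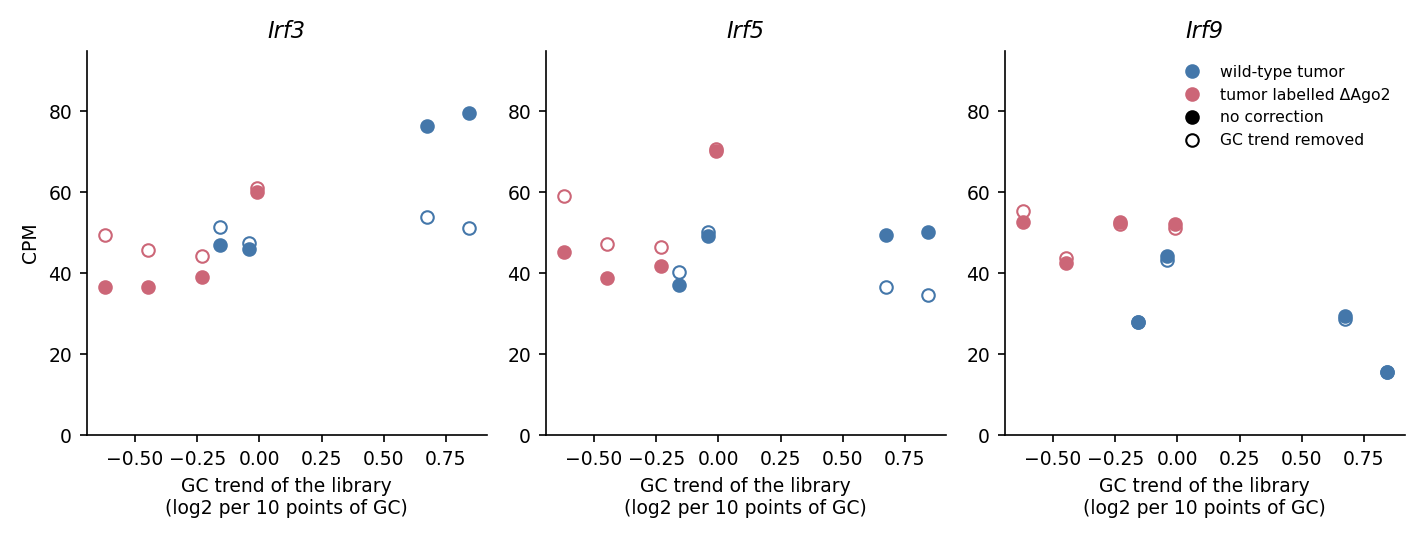
CPM of Irf3, Irf5 and Irf9 in each tumor against the GC trend of its library (log2 per 10 points of GC), without correction (filled) and with the trend removed (open). Filled points of Irf3 climb with the trend and its open points lie between 44.2 and 61.2 CPM, whereas the points of Irf9 hardly move with the correction.

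Irf7 (ENSMUSG00000025498.15, chr7:141262706-141266481, minus strand), the interferon-inducible amplifier of type I interferon production, was at 122, 87.1, 49.1 and 60.3 CPM in wild-type and at 194, 103, 119 and 76.8 CPM in ΔAgo2 tumors. ΔAgo2 tumor 1 was the highest of the 8 and wild-type tumor 1 the next, so that only 1 ΔAgo2 tumor exceeded all wild-type tumors. Its log2 fold change of 0.63 (SE 0.34, 95% interval -0.12 to 1.38, edgeR adjusted p = 0.253) was above that of 81.3% of all genes tested. Without ΔAgo2 tumor 1, the library with the highest macrophage marker sum, it was 0.31 (edgeR adjusted p = 0.485). Without wild-type tumor 1 it was 0.92 (edgeR adjusted p = 0.128). With the GC trend removed it was 0.95 (SE 0.34, edgeR adjusted p = 0.144). Markers of plasmacytoid dendritic cells, which carry much IRF7 (5 genes, none past the threshold), summed to 3.00 to 25.5 CPM in wild-type and 2.51 to 6.44 CPM in ΔAgo2 tumors. The highest sum was in wild-type tumor 3, where Cox6a2, which muscle also expresses, was at 23.3 CPM and muscle markers were highest. Siglech, the defining marker, was at 0.43 to 0.99 CPM in wild-type and 0.39 to 0.98 CPM in ΔAgo2 tumors.

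The kinases and adaptors that lead to IRF3, IRF5 and IRF7 (16 genes, all tested) held no gene past the threshold in either direction. At an unadjusted p under 0.05 the count was 3, beside 26.7% of all genes here and in the lists that follow, 11 had a log2 fold change above 0, and the median was 0.13. The highest was Chuk (IKKα) at 0.87 (SE 0.28, edgeR adjusted p = 0.0955), at 25.1 ± 7.56 CPM in wild-type and 46.1 ± 12.6 in ΔAgo2 tumors (SD, n = 4). The lowest was Ticam1 (TRIF, the adaptor of TLR3) at -0.44 (edgeR adjusted p = 0.229). After GC correction Chuk was at 0.31 (edgeR adjusted p = 0.261) and Ticam1 at 0.06 (edgeR adjusted p = 0.833). Tbk1, the kinase of IRF3 and IRF7, was at 19.5 to 31.4 CPM in wild-type and 31.5 to 54.2 in ΔAgo2 tumors. The groups met without overlapping, as groups did not overlap for 16.4% of all genes. Its log2 fold change was 0.63 (SE 0.24, edgeR adjusted p = 0.129). With the GC trend removed it was 0.35 (edgeR adjusted p = 0.263), and the groups overlapped, at 25.9 to 36.2 and 31.8 to 45.1 CPM. Ikbke (IKKε) was at 0.18 (edgeR adjusted p = 0.587).

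The interferon genes themselves, the targets of IRF3 and IRF7, had too few counts for any of the 14 to be tested. Ifnb1 had 0 counts in all wild-type tumors and in ΔAgo2 tumors 1 and 3, and 3 counts each in ΔAgo2 tumors 2 and 4, the deepest libraries. A count of 0 allowed up to 0.0562, 0.143, 0.0631 and 0.43 CPM in wild-type tumors 1 to 4, so a difference was not detectable at this depth. Ifna12, Ifnl2 and Ifnl3 were at 0 in every library. Ifng, the T and NK cell interferon that induces Irf1, had 6, 2, 9 and 5 counts in wild-type and 35, 20, 6 and 29 in ΔAgo2 tumors, or 0.0953 to 0.717 and 0.102 to 0.718 CPM. T cell markers (6 genes, none past the threshold) summed to 5.23 to 13.3 CPM in wild-type tumors, 25.5 in ΔAgo2 tumor 1 and 5.74 to 8.48 in the other ΔAgo2 tumors, and NK cell markers (3 genes, none past the threshold) to 0.43 to 2.38 and 1.92 to 3.36 CPM.

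Irf9 had the largest positive difference of the 8 without correction, and Irf7 with the GC trend removed. Irf9 (ENSMUSG00000002325.15, chr14:55603571-55610030, plus strand) was at 44.3, 29.5, 28.0 and 15.8 CPM in wild-type and at 52.2, 52.6, 52.7 and 42.7 CPM in ΔAgo2 tumors. ΔAgo2 tumors 1, 2 and 3 were nearly level, the wild-type tumors were spread, and the groups overlapped by ΔAgo2 tumor 4 lying under wild-type tumor 1. Its log2 fold change of 0.76 (SE 0.28, 95% interval 0.15 to 1.37, edgeR adjusted p = 0.124) was above that of 85.8% of all genes tested. Without wild-type tumor 1 it was 1.04 (edgeR adjusted p = 0.0569). Wild-type tumor 4, the lowest, rested on 110 counts, and without it the log2 fold change was 0.56 (edgeR adjusted p = 0.218). With the GC trend removed it was 0.80 (SE 0.26, edgeR adjusted p = 0.119), and the groups no longer overlapped, at 15.7 to 43.3 and 43.9 to 55.5 CPM, as for 14.1% of all genes so corrected (7.75% with ΔAgo2 higher).

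The receptors, JAK kinases and STATs that act with IRF9 (9 genes, all tested) also held none past the threshold. At an unadjusted p under 0.05 the count was 2, 6 were above 0, and the median log2 fold change was 0.48. Stat2 was at 0.48 (SE 0.28, edgeR adjusted p = 0.286), and Tyk2, the kinase bound to the type I interferon receptor, was lowest at -0.36 (edgeR adjusted p = 0.419). GC correction gave 0.64 (edgeR adjusted p = 0.218) and 0.23 (edgeR adjusted p = 0.594).

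Among 15 ISGF3 targets that the study did not put in its own interferon signature, 14 had a log2 fold change above 0, with a median of 0.76. At an unadjusted p under 0.05 there were 9, and 1 was past the threshold, higher, beside the 1.36% of all genes called higher. This was Zbp1, a sensor of Z-form nucleic acids, at 34.0, 25.6, 23.3 and 27.4 CPM in wild-type and 105, 58.0, 65.6 and 46.9 CPM in ΔAgo2 tumors. The groups were apart, and the log2 fold change was 1.32 (SE 0.26, edgeR adjusted p = 0.0278). After GC correction Zbp1 was at 1.38 (edgeR adjusted p = 0.00989), and Bst2, a membrane tether of virus particles, also passed, at 1.34 (edgeR adjusted p = 0.0252). The study chose its signature on these tumors, and this list was drawn up with that known.

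**Figure D4:**
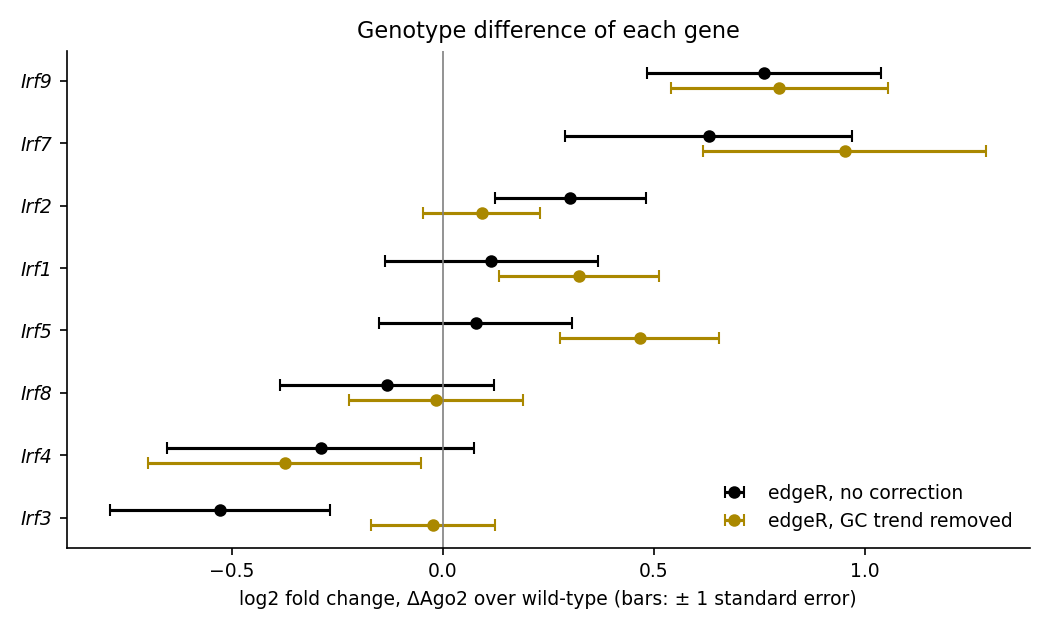
Log2 fold change of ΔAgo2 over wild-type tumors for each of the 8 genes, with bars of 1 SE, by edgeR without correction (black) and with the GC trend of each library removed (ochre). Irf9 and Irf7 are highest in both, Irf3 moves from -0.53 to -0.02 and Irf5 from 0.08 to 0.47, and no gene passes an adjusted p of 0.05 in either.

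Neither Irf1 nor its competitor Irf2 passed the threshold. Irf1 (ENSMUSG00000018899.16, chr11:53770014-53778374, plus strand) was at 96.3, 127, 73.7 and 131 CPM in wild-type and at 165, 104, 94.9 and 99.6 CPM in ΔAgo2 tumors. ΔAgo2 tumor 1 was above all others and the remaining ΔAgo2 tumors lay inside the wild-type range. The log2 fold change was 0.11 (SE 0.25, 95% interval -0.44 to 0.67, edgeR adjusted p = 0.793), and it was -0.11 without ΔAgo2 tumor 1. With the GC trend removed it was 0.32 (SE 0.19, edgeR adjusted p = 0.353).

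Irf2 (ENSMUSG00000031627.9, chr8:46739732-46847458, plus strand) was at 37.8, 38.3, 39.4 and 33.5 CPM in wild-type and at 38.5, 53.2, 46.7 and 45.6 CPM in ΔAgo2 tumors. Here ΔAgo2 tumor 1 was the lowest of its group, and the other 3 lay above every wild-type tumor. Irf2 had a log2 fold change of 0.30 (SE 0.18, 95% interval -0.09 to 0.70, edgeR adjusted p = 0.294). Irf2 has the lowest GC content of the 8, 46.4%, and with the GC trend removed the log2 fold change was 0.09 (SE 0.14, edgeR adjusted p = 0.741).

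Of 10 targets linked to IRF1, 8 were above 0, with a median log2 fold change of 0.38. At an unadjusted p under 0.05 there were 3, close to the share over all genes (26.7%), and 1 was past the threshold, higher, beside 1.36% of all genes. This was Cd274, which encodes the checkpoint ligand PD-L1, at 9.11, 9.96, 8.74 and 9.17 CPM in wild-type and 16.6, 24.9, 18.4 and 18.3 CPM in ΔAgo2 tumors. The wild-type tumors were nearly equal, all ΔAgo2 tumors were higher, and the log2 fold change was 1.08 (SE 0.21, 95% interval 0.62 to 1.54, edgeR adjusted p = 0.0244). The GC-corrected value was 0.74 (SE 0.20, edgeR adjusted p = 0.0668), which did not pass. Over the list, GC correction put all 10 targets above 0, with a median log2 fold change of 0.74 beside 0.07 over all genes. At an unadjusted p under 0.05 there were then 5, which were not set against a share over all genes. Tap1, the peptide transporter often used as an IRF1 target, was at 0.24 (SE 0.31, edgeR adjusted p = 0.631), or 0.67 (edgeR adjusted p = 0.140) with the GC trend removed. Across the pathway lists the calls were Cd274 and Zbp1, and without wild-type tumor 2, ΔAgo2 tumor 2 or ΔAgo2 tumor 3 the number of calls was 0.

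The regulators that restrain IRFs or interferon signaling (10 genes, all tested) held none past the threshold, with 3 at an unadjusted p under 0.05, 2 above 0 and a median log2 fold change of -0.09. Usp18, which blocks the type I interferon receptor and belongs to the study's signature, was highest at 1.43 (SE 0.38, edgeR adjusted p = 0.0625), at 8.74 to 26.9 CPM in wild-type and 27.4 to 53.9 in ΔAgo2 tumors, and at 1.49 (edgeR adjusted p = 0.0496) with the GC trend removed. Irf2bp1, a corepressor that binds IRF2, was lowest at -1.07 (SE 0.31, edgeR adjusted p = 0.0797), at 117 ± 56.4 and 55.8 ± 7.16 CPM (SD, n = 4). GC-corrected, Irf2bp1 was at 78.6 to 84.1 and 67.7 to 80.3 CPM, groups that overlapped, with a log2 fold change of -0.12 (SE 0.13, edgeR adjusted p = 0.631), and the median of the list turned to 0.11.

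Of the IRFs of immune cells none passed the threshold with edgeR. Irf5 (ENSMUSG00000029771.12, chr6:29526625-29541871, plus strand) was at 49.2, 49.5, 37.0 and 50.3 CPM in wild-type and at 70.1, 45.4, 41.9 and 38.8 CPM in ΔAgo2 tumors. ΔAgo2 tumor 1 was the highest and wild-type tumor 3 the lowest. Its log2 fold change was 0.08 (SE 0.23, 95% interval -0.43 to 0.58, edgeR adjusted p = 0.849). It turned to -0.15 without ΔAgo2 tumor 1 and to 0.47 (SE 0.19, edgeR adjusted p = 0.191) with the GC trend removed.

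Irf8 (ENSMUSG00000041515.10, chr8:120736358-120756694, plus strand), needed for monocytes and type 1 dendritic cells, was at 46.9, 50.0, 33.0 and 55.9 CPM in wild-type and at 62.1, 37.5, 37.3 and 32.3 CPM in ΔAgo2 tumors. ΔAgo2 tumor 1 was again above all, and ΔAgo2 tumor 4 was below all. The log2 fold change was -0.13 (SE 0.25, 95% interval -0.69 to 0.43, edgeR adjusted p = 0.760), and on leaving out 1 library it ran from -0.39 without ΔAgo2 tumor 1 to -0.01 without ΔAgo2 tumor 4. In ΔAgo2 tumor 1 the macrophage and monocyte marker sum was also highest, as given above, and the part of those cells in the levels of Irf1, Irf5, Irf7 and Irf8 was not tested. Markers of type 1 dendritic cells (5 genes, none past the threshold) summed to 19.4 to 34.3 CPM in wild-type and 19.5 to 24.8 CPM in ΔAgo2 tumors.

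Irf4 (ENSMUSG00000021356.10, chr13:30749226-30766976, plus strand), which acts in lymphocytes, plasma cells and some dendritic cells, was near the lower edge of what was measured. It had 108, 22, 87 and 6 counts in wild-type and 70, 128, 40 and 321 counts in ΔAgo2 tumors, or 2.02, 1.05, 1.83 and 0.86 CPM and 1.44, 1.12, 1.19 and 1.12 CPM. The ΔAgo2 tumors lay inside the wild-type range. Irf4 had a log2 fold change of -0.29 (SE 0.36, 95% interval -1.09 to 0.51, edgeR adjusted p = 0.625), whereas limma voom with quality weights gave -0.67 (adjusted p = 0.0417). On leaving out 1 library the edgeR value ran from -0.43 without wild-type tumor 4 to -0.07 without wild-type tumor 1. Markers of B and plasma cells (6 genes, 2 tested, none past the threshold) summed to 1.29 to 2.87 CPM in wild-type and 1.18 to 3.92 CPM in ΔAgo2 tumors.

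The DNA-binding partners of IRF4 and IRF8 (8 genes, all tested) held none past the threshold, with 1 at an unadjusted p under 0.05, 2 above 0 and a median log2 fold change of -0.32. Jun was lowest at -0.96 (SE 0.24, edgeR adjusted p = 0.0520), or -0.53 with the GC trend removed (edgeR adjusted p = 0.190), with 209 to 401 CPM in wild-type and 119 to 175 CPM in ΔAgo2 tumors. Batf2 was highest at 0.61 (SE 0.52, edgeR adjusted p = 0.466). Spi1, which encodes PU.1, was at -0.26 (edgeR adjusted p = 0.605), and it too was highest in ΔAgo2 tumor 1, at 132 CPM. Batf3, the partner of IRF8 in type 1 dendritic cells, was at 0.53 (SE 0.57, edgeR adjusted p = 0.562). When GC-corrected, Batf2 was at 1.16, Batf3 at 1.22 and Spi1 at 0.30 (edgeR adjusted p = 0.147, 0.132 and 0.483), and the median of the list turned to 0.19.

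Ratios of the genes within a library, which do not depend on how libraries are scaled, were tested by exact permutation of the genotype labels (two-sided, 70 assignments, smallest p 0.0286), with adjustment over 9 ratios. None passed after adjustment. A single ratio at the smallest p cannot pass over 9 ratios unless others are nearly as low, so this outcome cannot decide whether any ratio differs. The log2 ratio of Irf9 to Irf3 was -0.06, -1.37, -0.75 and -2.34 in wild-type and -0.20, 0.52, 0.43 and 0.22 in ΔAgo2 tumors, a difference of 1.37 or 2.58-fold (exact p = 0.0571, adjusted p = 0.129). Only ΔAgo2 tumor 1 overlapped the wild-type tumors. The ratio of Irf7 to Irf3 differed by 1.15 or 2.22-fold and that of Irf5 to Irf3 by 0.56 (exact p = 0.0571, adjusted p = 0.129 for each). With the GC trend removed the 3 differences were 0.93, 1.06 and 0.50 (exact, adjusted p = 0.193).

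The ratio of Irf1 to Irf2 differed by -0.18 (exact p = 0.657, adjusted p = 0.739) and that of Irf8 to Irf4 by -0.00 (exact p = 1). They were 0.22 and 0.27 with the GC trend removed. Irf1 over Irf2 was 2.10 in ΔAgo2 tumor 1 and 0.96 to 1.13 in the other ΔAgo2 tumors.

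Against Ptprc (CD45), the surface phosphatase of all leukocytes, the 4 IRFs compared had lower mean ratios in ΔAgo2 tumors before correction for GC content. None was past the adjusted threshold, which a ratio alone at the smallest p could not pass. Ptprc itself was at 33.1, 23.1, 25.8 and 13.9 CPM in wild-type and 35.5, 83.6, 40.9 and 49.6 CPM in ΔAgo2 tumors. These groups did not overlap, as for 16.4% of all genes (8.05% with ΔAgo2 higher). The log2 fold change of Ptprc, not corrected for GC content, was 1.12 (SE 0.33, edgeR adjusted p = 0.0785). The log2 ratio of Irf4 to Ptprc was -4.43 to -3.80 in wild-type and -6.19 to -4.60 in ΔAgo2 tumors, a difference of -1.27 with no overlap (exact p = 0.0286, adjusted p = 0.129). The differences were -1.27 for Irf8, -1.07 for Irf5 (exact p = 0.0857, adjusted p = 0.129 for each) and -0.48 for Irf7 (exact p = 0.371, adjusted p = 0.478). With the GC trend removed they were -0.72 for Irf4, -0.45 for Irf8, 0.05 for Irf5 and 0.61 for Irf7, none past the adjusted threshold, and the exact p for Irf4 was 0.0857. Other leukocyte markers differed in direction. Their log2 fold changes were 1.07 for Cd53, 0.51 for Cd52, 0.18 for Lcp1, -0.05 for Laptm5 and -0.87 for Coro1a. The ratios thus depend on the choice of Ptprc. The 6 leukocyte markers together, Ptprc among them, summed to 695 to 1063 CPM in wild-type and 643 to 1105 CPM in ΔAgo2 tumors.

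**Figure D5:**
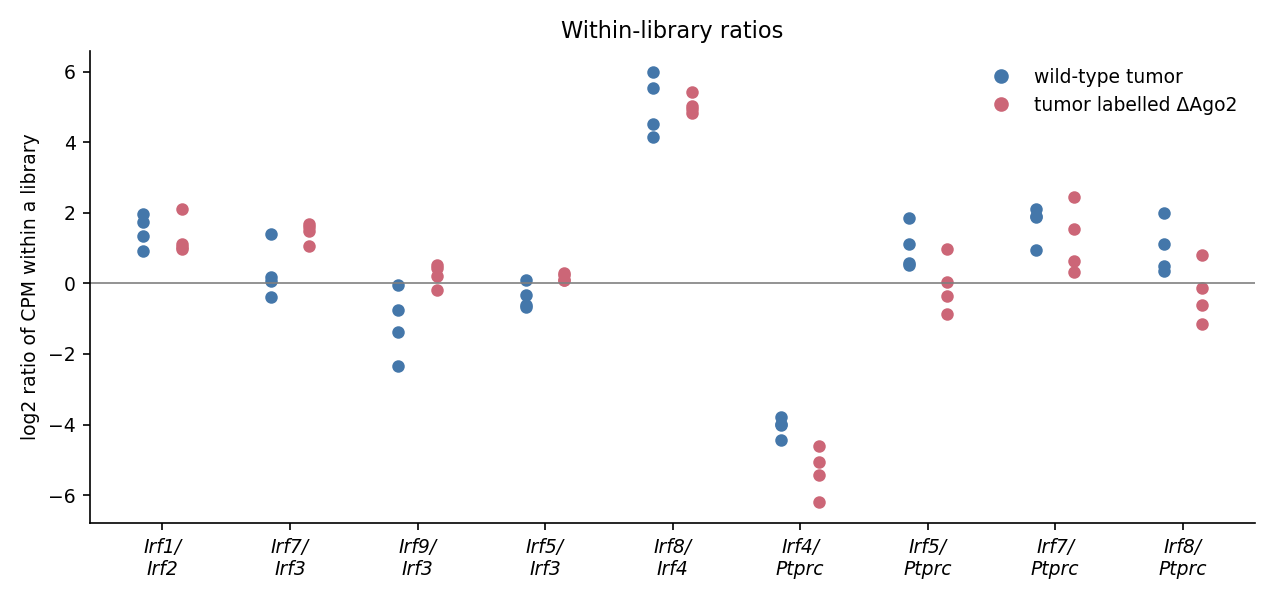
Log2 ratio of CPM of gene pairs within each library, for 4 wild-type (blue) and 4 ΔAgo2 (red) tumors. Irf4 over Ptprc, not corrected for GC content, is the pair whose groups do not overlap, at -4.43 to -3.80 against -6.19 to -4.60, and Irf9 over Irf3 overlaps by ΔAgo2 tumor 1.

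Within the family, the profiles over the 8 libraries fell closest for Irf5 and Irf8, with a root-mean-square difference of centred log2 CPM of 0.135, then for Irf1 and Irf5 at 0.150 and Irf1 and Irf8 at 0.172. Irf3 and Irf9 were farthest apart, at 0.927, and Irf7 lay nearest to Irf9 at 0.419. Among 10501 other genes of at least 5 CPM, the nearest to Irf1 were Tap2 (0.0977), Tapbp (0.108) and Tradd (0.113), the first 2 of which serve peptide loading of MHC class I. The nearest to Irf7 were Xaf1 (0.154), Oasl1 (0.190) and Oas1a (0.214), all interferon-stimulated genes, and the nearest to Irf9 were Sp100 (0.147), Parp11 (0.166) and Apobec1 (0.168).

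Irf5 and Irf8 had Selplg, the P-selectin ligand of leukocytes, as a common near gene, at 0.10 and 0.088. Beside it stood Rinl (0.0811) and Cnp (0.0881) for Irf5, and Grn (0.0834) and Zfyve19 (0.0846) for Irf8. The nearest to Irf3 were Plod3 (0.0696), Suds3 (0.0754) and Adprh (0.0764), to Irf2 Zfp949 (0.0521), Gab1 (0.0589) and Nfya (0.0643), and to Irf4 2810006K23Rik (0.112), Nubpl (0.120) and Rpp14 (0.133). These measures are descriptions over 8 libraries that share depth and GC trends.

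Exons of 5 of the genes overlap those of a neighbour, so that their counts depend on how shared reads were assigned. The overlap is 14.2% of the exonic bases of Irf5 (with Tnpo3, opposite strand), 3.40% of Irf1 (Gm17334, opposite), 2.56% of Irf3 (Bcl2l12, opposite), 2.28% of Irf9 (Rnf31, same strand) and 1.19% of Irf7 (Phrf1, opposite).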

How the data were processed

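Libraries were made by the authors from TRIzol-extracted tumor RNA with a stranded poly(A) kit and sequenced paired-end. The authors deposited raw counts, whole numbers per gene and library. Alignment to mm10 and counting with featureCounts are described for cultured cells and were assumed for the tumors, and the strand setting for the tumors is not given in the sources used here. The authors also deposited TPM, which are counts divided by gene length and scaled to 1e+06 per library. The 4 tumors of a group came from separate mice, so p-values reflect the spread between mice carrying 1 cell line or clone.

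Identifiers were matched to GENCODE M21 (99.29% of 55487 with version). Counts were analysed with edgeR 4.0.16 in R 4.3.3: filterByExpr, TMM, the quasi-likelihood test without covariates, and Benjamini-Hochberg adjustment over 16061 genes at 0.05. CPM used TMM-scaled totals and log2 CPM a prior count of 2. GC trends were splines fitted in each library to genes averaging 50 counts or more, and entered as offsets. Limits for 0 use 3 counts and cover counting error only. Ratios and the order of TPM levels were tested by exact permutation with scipy 1.17.1 in Python 3.11.15. DESeq2 1.42.0, limma 3.58.1 (voom with quality weights, or on log2 TPM), other scalings, filters, a replicate block, GC and length corrections, equal depth and leaving out each library were alternatives. The edgeR fits with and without GC correction were also run on simulated counts, and the outcome is not given here.

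The members and lists were chosen with earlier results of these data known. Named genes were all members, list genes past the threshold (at most 4 a list, otherwise the highest and lowest log2 fold change), 3 nearest profiles for each member, and genes acting beside a member (Ptprc, Stat2, Tbk1, Ikbke, Spi1, Batf3). Tap1, Bst2, Cox6a2, Siglech, Cd53, Cd52, Lcp1, Laptm5, Coro1a, Ccr2, Cd68, Epcam, Cdh1 and Nkx2-1 were named outside this rule, after their values were seen. A gene that falls under the rule is not reported here.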

Additional observations from a re-analysis of the deposited data

Results flagged for a closer look

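In 34 groups of 4 values, 5 had 1 library far from the other 3. A rate of 1 in 20 would give about 1.7. The groups share genes and libraries, so these numbers cannot show an excess. ΔAgo2 tumor 1 stood apart in 3 of the 5. Its Irf1 level was 165 CPM with the other ΔAgo2 tumors at 94.9 to 104 CPM, its Irf3 level was 60.1 CPM with the others at 36.6 to 39.0 CPM, and its log2 ratio of Irf1 to Irf2 was 2.10 with the others at 0.96 to 1.13. Wild-type tumor 3 had 37.0 CPM of Irf5, with the other wild-type tumors at 49.2 to 50.3 CPM. ΔAgo2 tumor 4 had 42.7 CPM of Irf9, with the other ΔAgo2 tumors at 52.2 to 52.7 CPM.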

How the results depend on the processing

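Irf2, Irf3 and Irf9 kept their direction and stayed short of the threshold under every one of 23 alternatives, at 0.09 to 0.51, -0.74 to -0.02 and 0.37 to 1.07. Irf7 kept its direction in all 23, at 0.04 to 1.03. The number of the 8 genes past the threshold was 0 except for 1 with limma voom (Irf4, -0.67) and 1 with the replicate block and GC correction together (Irf7, 1.03, edgeR adjusted p = 0.0325). Directions turned for Irf5 with voom (-0.16), for Irf4 on log2(TPM + 0.1) (0.039) and for Irf8 on TPM (0.057, 0.061 and 0.057 in 3 settings), where the median of all genes moved to 0.21 with log2(TPM + 1) and 0.28 with log2(TPM + 0.1), but was 0.03 with log2(TPM + 1) without a filter. They also turned in Irf1 without wild-type tumor 3 (-0.03) or ΔAgo2 tumor 1 (-0.11) and in Irf5 without wild-type tumor 3 (-0.02) or ΔAgo2 tumor 1 (-0.15), within leave-one-out ranges of -0.11 to 0.23 and -0.15 to 0.19. Irf4 could not be tested with at least 10 counts in every library or at equal depth.

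Of the pathway genes, 2 passed, but 14 did with the DESeq2 Wald test, 21 with voom, 8 without a count filter, 8 with the length correction, 4 at equal depth, 1 on log2(TPM + 0.1), 1 on log2(TPM + 1) without a filter, 5 with the replicate block and GC correction, and 0 to 11 on leaving out a library (11 without wild-type tumor 1, 7 without ΔAgo2 tumor 1). All genes called numbered 560 by edgeR (3.49% of those tested), 2265 by the DESeq2 Wald test (13.1%) and 4476 by voom (27.9%). They numbered 1176 with the length correction (7.32%), 983 without a filter (3.24%) and 153, 107 and 77 on TPM. On leaving out a library they numbered 88 to 1793. The number of genes tested differed between settings. With DESeq2, voom and the length correction the share called thus rose over all genes as well. The pathway counts were not tested against these shares. With the GC correction 3 pathway genes passed (Zbp1, Bst2 and Usp18, without Cd274). The causes were not tested.

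Same-numbered tumors did not deviate together (correlations of -0.24, 0.10, -0.04 and -0.29), so the replicate numbers were not taken as a pairing. With the replicate block 0 of the 8 genes and 0 pathway genes passed, Irf9 was at 0.85 (edgeR adjusted p = 0.191), and 70 genes were called in all, or 297 with the GC correction added.

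The GC correction of ratios was chosen after seeing the data. It turned Irf1 over Irf2 (0.22), Irf8 over Irf4 (0.27), Irf5 over Ptprc (0.046) and Irf7 over Ptprc (0.61). Irf8 over Irf4, at -0.00, also turned with a prior count of 0.5 (0.00021) and on log2(TPM + 0.1) (0.022), and ran from -0.30 to 0.31 on leaving out a library. With 7 libraries the steps from Irf3 to Irf9 (0.79 to 1.17) and from Irf2 to Irf4 (3.16 to 3.31) had an adjusted p of 0.0547 (exact), except without wild-type tumor 4 (0.0365, exact), and Irf7 over Irf5 ran from 0.53 to 0.71. For both steps the raw p was 0.0156 (exact sign-flip) each time, the smallest this test can give with 7 libraries. The higher adjusted p thus follows from the smaller number of libraries. Wild-type tumor 4, the shallowest library, limits Irf4 (6 counts) and Irf9 (110 counts).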
